A study of Mus musculus with 20 samples.

Results

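The insulin-like growth factor axis of the liver was described through 10 genes, the hormone Igf1, its circulating partner Igfals, the growth hormone receptor Ghr and the binding proteins Igfbp1 to Igfbp7, out of 22180 genes measured on the same microarrays. The genes were chosen by name, and each was represented by 1 probe set that carried no other gene symbol. The livers came from 20 adult male mice of C57BL/6 x CBA background, aged 13 to 19 weeks, 10 labelled WT and 10 labelled Bnc2 heterozygous, which were littermates per the methods of the study. The heterozygous mice carried in every cell a gene trap (line Ayu21-18) inserted between 2 exons of 1 copy of Bnc2, a gene that encodes the transcription factor basonuclin 2 and that the study addresses in myofibroblasts. All 20 mice, WT included, were kept for 7.5 weeks on CDAA-HFSC, a diet of defined amino acids without choline to which cholesterol (2%), fat (21%) and sucrose (35%) are added, so no liver of a chow-fed mouse enters these comparisons.

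In the liver, growth hormone acts through its receptor, the kinase JAK2 and the transcription factor STAT5 to induce Igf1, and most circulating IGF-1 travels in a complex with a binding protein and the acid-labile subunit encoded by Igfals. The binding proteins prolong the life of IGF-1 in blood or hold it away from its receptor. Igfbp1, Igfbp2 and Igfbp4 are made mainly by hepatocytes, Igfbp1 being repressed by insulin, whereas Igfbp3 comes in rodents mainly from non-parenchymal cells, and Igfbp5, Igfbp6 and Igfbp7 are known as products of mesenchymal cells. Igfbp7 binds IGF-1 weakly and is also made by endothelial cells.

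The DNA upstream of 4 of these genes is shown because the results below turn on how Igfbp1, Igfbp5, Igfbp6 and Igfbp7 varied between mice. The sequences are from RefSeq, build GRCm38.p6, read on the strand of the gene and ending at the base before the annotated start, and all 10 genes matched at least 1 upstream window of 250 bases in that table. In the Igfbp1 sequence, capitals mark CAAAACA and TATTTTG, 4 bases apart, with the bases between them, a stretch known as the insulin response element of this gene. In the other sequences capitals mark GGGCGG and CCAAT, searched on both strands.
Igfbp1, chr11:7197537-7197786, plus strand: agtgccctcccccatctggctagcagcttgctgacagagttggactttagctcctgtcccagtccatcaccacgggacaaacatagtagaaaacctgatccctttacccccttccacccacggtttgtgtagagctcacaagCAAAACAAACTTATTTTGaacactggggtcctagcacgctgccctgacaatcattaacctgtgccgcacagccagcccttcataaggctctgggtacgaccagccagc
Igfbp5, chr1:72874866-72874985, minus strand: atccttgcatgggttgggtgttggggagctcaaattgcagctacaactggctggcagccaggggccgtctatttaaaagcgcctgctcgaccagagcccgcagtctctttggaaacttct
Igfbp6, chr15:102144066-102144185, plus strand: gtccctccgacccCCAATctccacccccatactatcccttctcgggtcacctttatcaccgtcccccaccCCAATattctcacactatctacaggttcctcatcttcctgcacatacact
Igfbp7, chr5:77408046-77408165, minus strand: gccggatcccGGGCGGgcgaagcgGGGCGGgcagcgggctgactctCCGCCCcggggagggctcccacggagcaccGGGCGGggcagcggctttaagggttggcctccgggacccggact
CAAAACA occurred on either strand in 5.56% of all 32851 windows of 250 bases and in none of the windows of the other 9 genes. The spaced pair, whose letters were taken from the Igfbp1 sequence itself, occurred in 1 window, that of Igfbp1, at bases -108 to -91. The 120 bases of Igfbp7 held GGGCGG 4 times and were 78.3% G and C, against 55.0% for Igfbp5 and 53.3% for Igfbp6. GGGCGG was found in 32.7% of all windows, which are longer, at 250 bases. Over 250 bases G and C made up 74% for Igfbp7, 58.8% for Igfbp5 and 49.6% for Igfbp6. The median of all windows was 52.4%. Igfbp6 held CCAAT in 2 places, a motif found in 33.8% of all windows, and Igfbp5 held none of the motifs searched. These matches describe letters, and no binding was measured.

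The values were log2 signals as scaled by the authors' normalization, with a maximum of 19.93. On this scale 1 unit is a doubling of the scaled signal, to which all folds here refer. Levels are compared between mice and not between genes. Array medians lay between 6.62 and 6.71, and any 2 arrays correlated at r = 0.987 to 0.994 across genes. The labelled tissue carried the markers of hepatocytes, whose mean over 7 genes was 18.37 in WT and 18.42 in heterozygous livers. Olfactory receptor genes, which liver does not use, gave a measure of background, since 95% of 1105 such genes lay under 6.99. Bnc2 itself read 5.37 in WT and 5.41 in heterozygous livers (difference 0.04, SE 0.09, limma adjusted p = 0.977). That is within this background, so the array does not check the genotype labels. Over the whole array 0 of 22180 genes (0%) passed an adjusted p of 0.05 between genotypes by limma, while 806 (3.63%) were lower and 616 (2.78%) higher in heterozygous livers at an unadjusted p under 0.05. The balance of the 2 directions turned with arrays centred on their medians (627 lower, 836 higher) and without the 4 arrays of smallest spread (762 lower, 770 higher).

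Between genotypes, none of the 10 genes passed the test adjusted over all genes, and 1 of them, Igfbp7, was lower at an unadjusted p under 0.05. That is 1 of 10, against 3.63% of all genes called lower in the same way. The difference was below 0 for 8 of the 10 genes and above 0 for 2, with a median of -0.11 on the log2 scale, against a median of 0.003 and 49.0% of genes below 0 over the whole array. The 2 widest differences, those of Igfbp1 and Igfbp5, were also the 2 with the widest intervals.

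**Figure D1:**
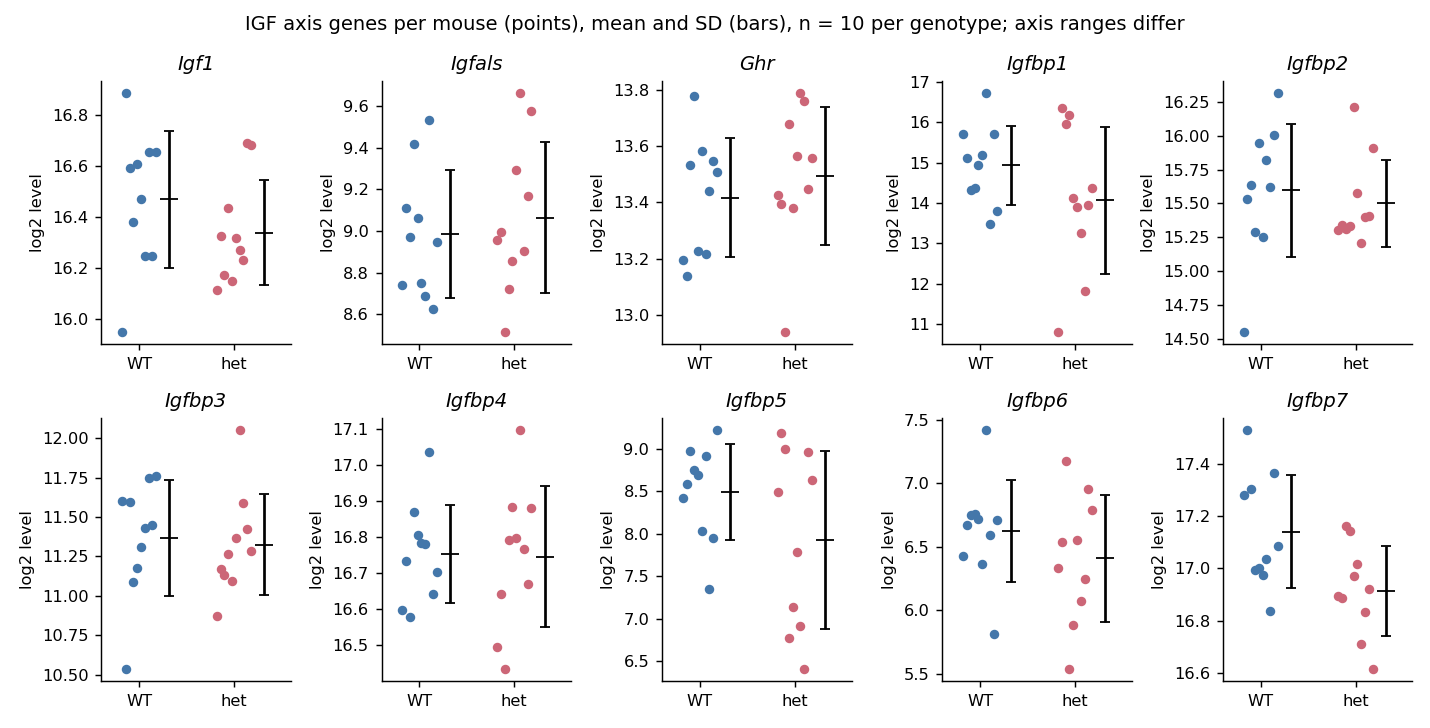
Log2 level of each of the 10 genes, 1 point per mouse, for 10 WT and 10 Bnc2 heterozygous (het) livers, with the mean and SD as bars; each panel has its own axis range. The heterozygous points of Igfbp1 run down to 10.80 and those of Igfbp5 to 6.41, while Igfbp4 stays between 16.43 and 17.10 in all mice.

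Igf1 (Entrez gene 16000), the hormone itself, ranged from 15.95 to 16.89 in WT livers with a median of 16.53, and from 16.11 to 16.69 in heterozygous livers with a median of 16.29. The lowest and the highest level both belonged to WT mice, and the groups overlapped almost throughout. The means were 16.47 ± 0.27 and 16.34 ± 0.21 (SD, n = 10 each), a fold of 0.913 (95% interval 0.785 to 1.06, limma adjusted p = 0.904), with 8 of 10 heterozygous livers under the WT mean.

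Ghr (14600), the receptor through which growth hormone induces Igf1, ranged from 13.14 to 13.78 in WT livers (median 13.47) and from 12.94 to 13.79 in heterozygous livers (median 13.50). One heterozygous mouse, number 3, lay under every WT mouse, and the others fell within the WT range or just above it. The fold was 1.06 (0.913 to 1.22, limma adjusted p = 0.949). Igfals (16005), the acid-labile subunit, ranged from 8.62 to 9.53 in WT (median 8.96) and from 8.51 to 9.66 in heterozygous livers (median 8.98), with a fold of 1.06 (0.863 to 1.30, adjusted p = 0.966). For both genes the interval of the fold included 1.

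Igfbp1 (16006), which keeps IGF-1 from its receptor and follows insulin within hours, varied more between mice than any other of the 10 genes. Its level ran from 13.47 to 16.72 in WT livers, with a median of 15.03, and from 10.80 to 16.34 in heterozygous livers, with a median of 14.04. From the lowest to the highest of the 20 mice this was a 60.5-fold range, and the SD left after removing the genotype means was reached by 0.0947% of all genes. Heterozygous mice 1, 7 and 8 lay under the lowest WT mouse, whereas the next highest levels after WT mouse 7 were those of heterozygous mice 2 and 4. The means were 14.94 ± 0.98 and 14.07 ± 1.82 (SD, n = 10 each), a log2 difference of -0.87 (SE 0.59), or -0.50 without heterozygous mouse 1 and -1.12 to -0.50 over all omissions of 1 mouse. The fold was 0.548, with a 95% interval of 0.236 to 1.27 (limma unadjusted p = 0.154, adjusted p = 0.868), so both a decrease well beyond the mean difference and a small increase lie within the error. The SD was 1.86 times as large in heterozygous as in WT livers, a ratio reached by 4.79% of genes.

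Igfbp2 (16008), abundant in fetal liver and lowered by feeding, ranged from 14.55 to 16.31 in WT (median 15.63) and from 15.21 to 16.21 in heterozygous livers (median 15.37), a fold of 0.935 (0.731 to 1.20, limma adjusted p = 0.966). Igfbp4 (16010), which holds IGF-1 until the protease PAPP-A cleaves it, was the steadiest of the 10 genes, at 16.58 to 17.04 in WT (median 16.76) and 16.43 to 17.10 in heterozygous livers (median 16.78). The fold of Igfbp4 was 0.995 (0.888 to 1.12, adjusted p = 0.998), and the sign of so small a difference turned with the scaling, from -0.01 to 0.01 when each array was centred on its median. Igfbp3 (16009), the main carrier in blood, ranged from 10.54 to 11.76 in WT (median 11.44) and from 10.87 to 12.05 in heterozygous livers (median 11.27). Its fold was 0.970 (0.787 to 1.19, adjusted p = 0.988), and its sign turned when heterozygous mouse 1 was left out.

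Igfbp5 (16011), a binding protein of fibroblasts that attaches to the extracellular matrix, ranged from 7.36 to 9.23 in WT livers (median 8.63) and from 6.41 to 9.18 in heterozygous livers (median 8.14). Heterozygous mice 4, 5, 7 and 8 lay under the lowest WT mouse, while heterozygous mice 2, 3 and 9 lay near the top of the WT range. The means were 8.49 ± 0.56 and 7.93 ± 1.05 (SD, n = 10 each), a fold of 0.679 (0.416 to 1.11, limma unadjusted p = 0.115, adjusted p = 0.841). As for Igfbp1, the heterozygous SD was 1.86 times the WT SD, and 4.74% of genes reached that ratio.

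Igfbp6 (16012), which prefers IGF-2 to IGF-1, ranged from 5.81 to 7.42 in WT (median 6.69) and from 5.54 to 7.18 in heterozygous livers (median 6.43). In 18 of the 20 mice it lay under the level that 95% of olfactory receptor genes did not reach, as Igfbp5 did in 3. The fold of Igfbp6 was 0.862 (0.659 to 1.13, limma adjusted p = 0.912), with 7 of 10 heterozygous livers under the WT mean. The log2 difference of -0.21 became -0.12 without heterozygous mouse 4, -0.13 without WT mouse 7 and -0.35 without the 4 arrays of smallest spread.

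Igfbp7 (29817), secreted into the matrix by stellate and endothelial cells, ranged from 16.84 to 17.53 in WT livers with a median of 17.06, and from 16.62 to 17.16 in heterozygous livers with a median of 16.91. Heterozygous mice 7, 8 and 10 lay under every WT mouse, and WT mice 1, 2, 3 and 9 lay above every heterozygous mouse. The means were 17.14 ± 0.22 and 16.91 ± 0.17 (SD, n = 10 each), a log2 difference of -0.23 (SE 0.09) and a fold of 0.855 (0.753 to 0.972), with 8 of 10 heterozygous livers under the WT mean. The unadjusted limma p was 0.0187 and the permutation p 0.0194, but over all genes the adjusted p was 0.664. In whole liver RNA, fewer cells of a type and less RNA per cell cannot be told apart. Of the stellate and myofibroblast markers, 8 of 10 had a difference below 0, against 49.0% of all genes. They did not move evenly. The widest differences were those of the collagens Col1a1 (-0.91), Col1a2 (-0.76) and Col3a1 (-0.57). Reln differed by -0.10, and Lrat and Des by 0.03 each, above 0. The mean level of the 10 markers was 11.97 to 12.69 in WT against 11.48 to 12.37 in heterozygous livers (difference -0.33). None of the 10 markers was at background, and their part in the Igfbp7 difference was not tested. Among the other cell types, the mean of 5 Kupffer cell markers differed by -0.54, that of 6 sinusoidal endothelial markers by -0.07 and that of 4 cholangiocyte markers by -0.10.

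**Figure D2:**
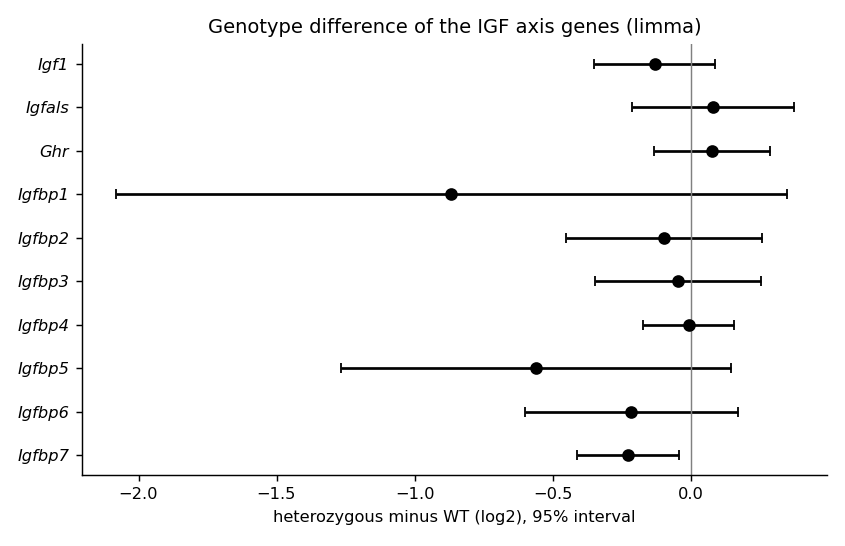
Log2 difference between heterozygous and WT livers for each of the 10 genes (points) with 95% intervals (bars), from limma on 10 mice per genotype; the vertical line marks no difference. The interval of Igfbp7 (-0.23) lies below 0, those of the other 9 genes cross it, and those of Igfbp1 and Igfbp5 are the widest.

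The hepatocyte genes (Igf1, Igfals, Ghr, Igfbp1, Igfbp2 and Igfbp4) were set against the mesenchymal binding proteins Igfbp5, Igfbp6 and Igfbp7 in each mouse, after centring every gene on its mean. The hepatocyte mean was lower by 0.16 in heterozygous livers (0.08 ± 0.12 in WT against -0.08 ± 0.32, SD, n = 10 each) and the mesenchymal mean was lower by 0.33 (0.17 ± 0.29 against -0.17 ± 0.50). Their difference therefore moved by 0.18, less than its SD between mice of 0.29 in WT and 0.56 in heterozygous livers. Without Igfbp1 the hepatocyte mean moved by -0.02 and the contrast by 0.32. Within the mesenchymal mean, Igfbp5 differed most, by -0.56, beside -0.23 for Igfbp7 and -0.21 for Igfbp6, which lay mostly within the background. A mean without Igfbp5 was not computed. With each gene scaled to the same SD, the contrast moved by 0.57, against SDs of 0.77 and 1.17. Across the 20 mice the hepatocyte and mesenchymal means correlated at r = 0.12 within genotype, -0.36 once the genes were scaled and -0.23 without Igfbp1, so neither a shared nor an opposed movement held under each weighting.

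The genes were then compared across mice, apart from genotype. Over the 45 pairs of the 10 genes, correlations of values centred within genotype over 20 mice passed the adjusted threshold for 2 pairs by Pearson's r and for 0 pairs by Spearman's rho, and 9 pairs had an unadjusted Pearson permutation p under 0.05. Igfbp5 and Igfbp6 rose and fell together (r = 0.71, adjusted permutation p = 0.0236, rho = 0.74, adjusted p = 0.0666), at 0.55 in WT and 0.80 in heterozygous livers and at 0.69 without the 2 mice farthest from the median. For Igfbp7, the third of the mesenchymal genes, r was 0.09 with Igfbp5 and -0.19 with Igfbp6 (adjusted permutation p = 0.856 and 0.723), and the differences between these correlations were not tested. The other pair was Igfals and Igfbp4 (r = 0.70, adjusted permutation p = 0.0236, rho = 0.57, adjusted p = 0.141), which fell to r = 0.51 without the 2 farthest mice and to 0.60 (adjusted permutation p = 0.111) after a new quantile normalization. Leaving out 1 mouse ended the call of both pairs for WT mouse 4 (adjusted permutation p = 0.0502 for each) and heterozygous mice 3, 7 and 9, and for WT mouse 8 that of Igfals with Igfbp4 alone, with r between 0.62 and 0.76 for Igfals and Igfbp4 and between 0.66 and 0.75 for Igfbp5 and Igfbp6 over all omissions. Without the 4 arrays of smallest spread neither pair passed (r = 0.73 and 0.65, adjusted permutation p = 0.121 for each). Igfbp4 ran opposite to Igfbp7 at r = -0.60 and Igfals at r = -0.59, which did not pass the adjustment (adjusted permutation p = 0.0636 and 0.0782). Igf1 and Igfals, both targets of growth hormone, correlated at r = 0.48 (rho = 0.57, adjusted permutation p = 0.199 and 0.141).

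**Figure D3:**
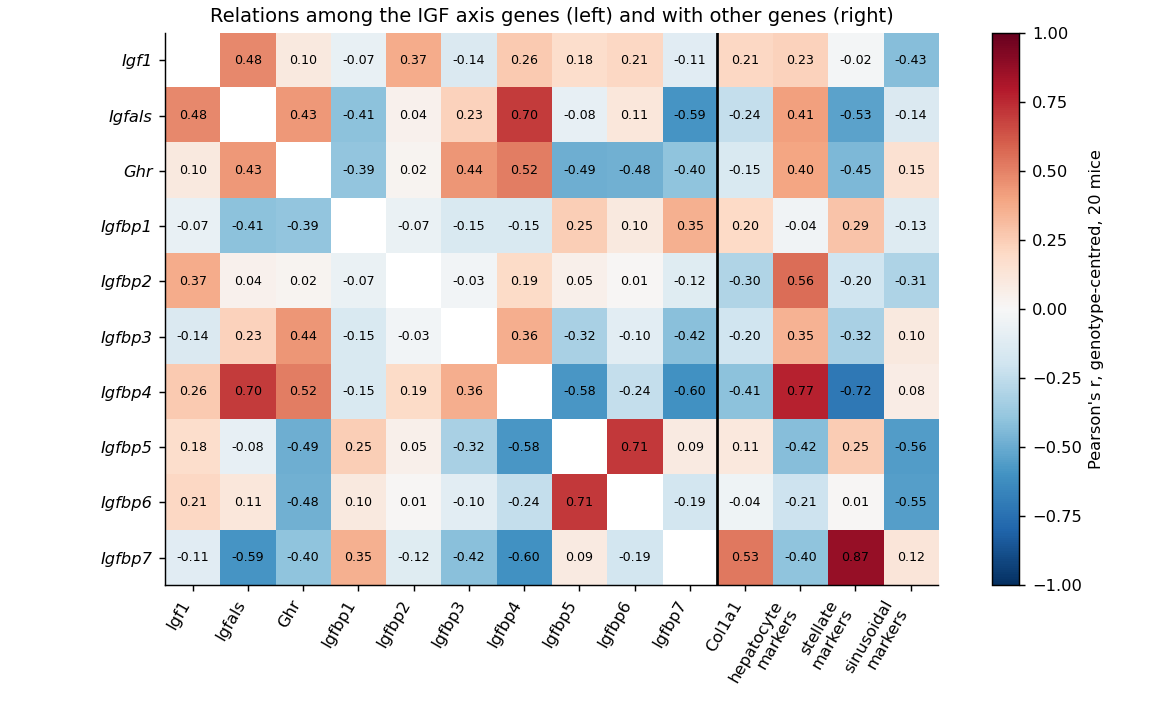
Pearson's r of genotype-centred log2 levels over 20 mice, among the 10 genes (left of the line) and between each gene and Col1a1 or the mean of the hepatocyte, stellate and sinusoidal endothelial markers (right of it). The strongest cell is Igfbp7 with the stellate markers (0.87), beside 0.25 for Igfbp5 and 0.01 for Igfbp6.

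Set against marker genes of the liver's cell types, 3 of 40 relations passed the adjusted threshold, by Pearson's r and by Spearman's rho. Igfbp7 followed the mean of the 10 stellate and myofibroblast markers closely (r = 0.87, rho = 0.89, adjusted permutation p = 4e-04 for each, from a permutation p of 1e-05, the smallest that these permutations can give). The relation stood at r = 0.87 within WT and 0.90 within heterozygous livers, at 0.89 without the 2 farthest mice, and between 0.85 and 0.90 when any 1 mouse was left out. Gene by gene, r of Igfbp7 was above 0.5 for 8 of the 10 markers, from 0.16 for Lrat, the vitamin A esterase of quiescent stellate cells, and 0.50 for Reln to 0.79 for Dcn and 0.86 for Lum, both proteoglycans of the matrix. The share of all genes with r above 0.5 is not given here, so this count alone does not set these markers apart. With Col1a1, the collagen gene that the study used to follow fibrosis, Igfbp7 correlated at 0.53 (rho = 0.51, adjusted permutation p = 0.120 and 0.137), from 0.31 within WT to 0.79 within heterozygous livers, a difference that was not tested.

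Igfbp4 had relations of opposite sign. It rose with the mean of the hepatocyte markers (r = 0.77, rho = 0.66, adjusted permutation p = 0.0026 and 0.0297) and fell with that of the stellate markers (r = -0.72, rho = -0.69, adjusted permutation p = 0.00733 and 0.0297), with r of 0.66 and -0.61 without the 2 farthest mice. The hepatocyte relation stood at 0.57 within WT and 0.93 within heterozygous livers, and the stellate relation at -0.68 and -0.75. Both calls held after a new quantile normalization, after median centring, without the 4 arrays of smallest spread and without any 1 mouse. Some held only just (adjusted permutation p = 0.0433), the hepatocyte relation after quantile normalization (r = 0.63) and the stellate relation without the 4 arrays (r = -0.70). Neither passed within WT alone (adjusted permutation p = 0.707 and 0.385). Within heterozygous livers the hepatocyte relation passed and the stellate relation did not (0.008 and 0.0921). The hepatocyte marker mean itself varied little, with an SD of 0.06 in each genotype, and 2 of its 7 markers, Ttr at 19.77 and Cyp2e1 at 19.86 in WT livers, lay close to the array maximum of 19.93.

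For Igfbp5 and Igfbp6, the relations with the stellate markers (r = 0.25 and 0.01) and with Col1a1 (0.11 and -0.04) did not pass (adjusted permutation p = 0.585 and 0.957, then 0.783 and 0.933), and no single stellate marker reached r = 0.5 with either. With the sinusoidal endothelial marker mean, r was -0.56 for Igfbp5, -0.55 for Igfbp6 and 0.12 for Igfbp7. None of these passed (adjusted permutation p = 0.135, 0.120 and 0.763). Among 11089 genes at or above the median level, the gene most like Igfbp5 was Upk3b, a uroplakin of the mesothelium that covers the liver, at r = 0.83 over 20 mice, before Cidec at 0.74 and Gpm6a at 0.74. The gene most like Igfbp6 was Upk3b too, at 0.81, before Sftpa1 at 0.71. After this was seen, 10 genes known from mesothelial cells (Upk3b, Upk1b, Msln, Gpm6a, Wt1, Lrrn4, Muc16, Bnc1, Aldh1a2, Rspo1) were listed, so their values describe these mice and test nothing. With Igfbp5, r was above 0.5 for 6 of them, led by Upk3b and then Msln at 0.76. With Igfbp6 it was above 0.5 for 7, led by Msln at 0.86 and Upk1b at 0.84, both within the background, whereas none reached 0.5 with Igfbp7 (median r of -0.09). The share of all genes above 0.5 is not given here, so these counts alone do not set a cell type apart. The mean of the 10 genes correlated at 0.81 with Igfbp5, 0.93 with Igfbp6 and -0.07 with Igfbp7. In 8 of the 10 the mean level lay within the background, with Upk3b at 7.08 and Gpm6a at 9.21 above it. Upk3b cleared it only just, at a mean of 7.25 in WT livers, and lay within it at 6.91 in heterozygous livers. The mesothelial mean ran from 5.68 to 6.32 in WT and from 5.53 to 6.28 in heterozygous livers (difference -0.15), beside the lower means of Igfbp5 and Igfbp6, and its part in them was not tested.

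**Figure D4:**
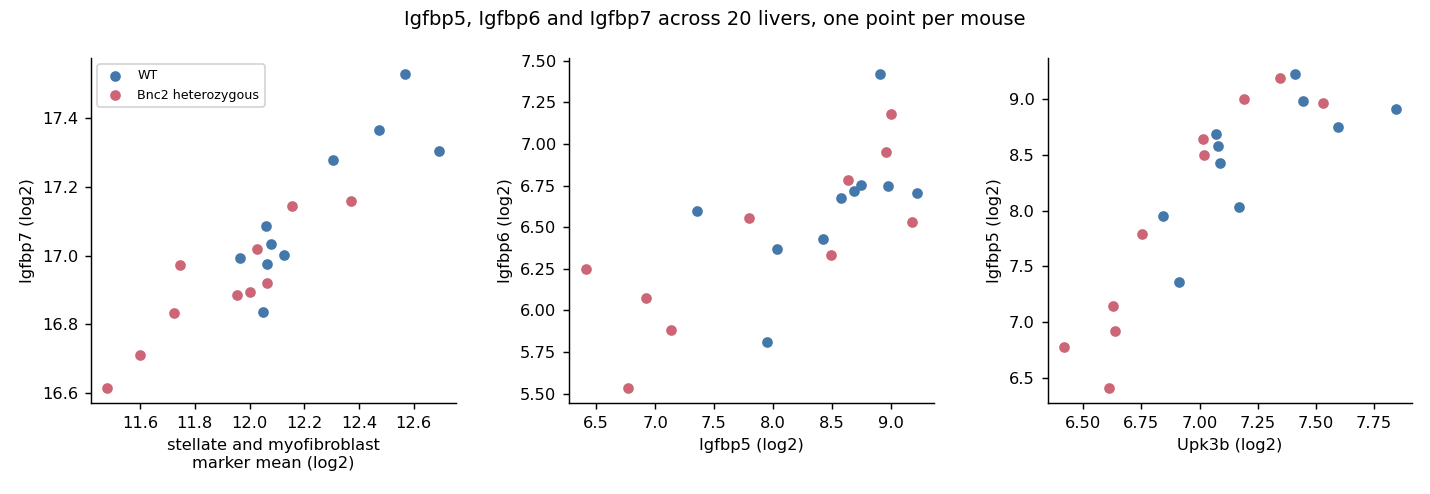
One point per mouse on log2 scales, for 10 WT and 10 heterozygous livers: Igfbp7 against the mean of 10 stellate and myofibroblast markers, Igfbp6 against Igfbp5, and Igfbp5 against Upk3b, not centred on genotype. Igfbp7 rises along the stellate markers in both genotypes, and the 4 heterozygous livers with the lowest Igfbp5 (6.41 to 7.14) are also the 4 lowest for Upk3b. Those Upk3b levels (6.42 to 6.63) lie within the background, as does Igfbp5 in 3 of these livers.

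The wide range of Igfbp1 was set against 7 genes that insulin represses in hepatocytes, relations added after that range was seen. Igfbp1 rose with 3 of them, the insulin receptor substrate Irs2 (r = 0.65, adjusted permutation p = 0.0225), the ubiquitin ligase Fbxo32 (r = 0.62, adjusted p = 0.0285) and the glucose-6-phosphatase G6pc (r = 0.57, adjusted p = 0.0285), and with rho of 0.53, 0.51 and 0.52 (adjusted permutation p = 0.0714 for each). Within WT and heterozygous livers r was 0.52 and 0.74 for Irs2, 0.71 and 0.53 for G6pc, and 0.11 and 0.77 for Fbxo32, and the differences between genotypes were not tested. Without the 2 farthest mice r was 0.44 for Irs2, 0.34 for Fbxo32 and 0.58 for G6pc, so the relations with Irs2 and Fbxo32 rest in part on those mice. All 3 calls were lost when WT mouse 7, heterozygous mouse 1 or heterozygous mouse 4 was left out (adjusted permutation p between 0.0515 and 0.237). The gluconeogenic enzyme Pck1 correlated with Igfbp1 at 0.24, Sesn3 at 0.15, Trib1 at -0.24 and Ppargc1a, the coactivator of fasting, at -0.28. The genes most like Igfbp1 over all those at or above the median level were Efna1 (0.85), Ip6k2 (0.82) and Trp53inp1 (0.79).

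Between genotypes, 6 of these 7 insulin-repressed genes had a difference below 0, with a median of -0.47, and 3 were lower at an unadjusted limma p under 0.05, against 49.0% below 0 and 3.63% called lower over all genes. Fbxo32 read 9.48 ± 0.23 in WT and 8.89 ± 0.44 in heterozygous livers, a fold of 0.665 (0.540 to 0.821). For Irs2 the levels were 9.87 ± 0.51 and 9.00 ± 0.62, a fold of 0.547 (0.393 to 0.763), and Pck1 had a fold of 0.668 (0.503 to 0.888). None passed adjustment over all genes by limma (adjusted p = 0.446, 0.459 and 0.613). The genes were listed with earlier results of these data known, so their direction is no independent evidence.

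On the growth hormone side, Igf1 and Igfals were set against 10 genes of the growth hormone pathway, and 2 of the 20 relations passed. Igf1 rose with Socs2, a STAT5 target that restrains the receptor (r = 0.77, rho = 0.74, adjusted permutation p = 0.003 and 0.0092), at 0.78 within WT and 0.76 within heterozygous livers and at 0.66 without the 2 farthest mice, but not past the threshold without the 4 arrays of smallest spread (r = 0.70, adjusted permutation p = 0.184). Its relation with Jak2 was weaker (r = 0.62, rho = 0.63, adjusted permutation p = 0.0492 and 0.035) and lost its call when any 1 of 16 mice was left out (r between 0.58 and 0.69 over all omissions). No relation of Igfals passed. Between genotypes 7 of the 10 pathway genes had a difference below 0 (median -0.13), against 49.0% of all genes. Jak2 (fold 0.884, 0.797 to 0.981) and Socs3 (fold 0.757, 0.582 to 0.983) were lower at an unadjusted limma p under 0.05, against 3.63% of all genes. Neither passed adjustment (limma adjusted p = 0.675 and 0.756). Socs1, the third by p, had a fold of 0.873 (adjusted p = 0.778), from levels within the background (5.27 in WT and 5.07 in heterozygous livers).

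**Figure D5:**
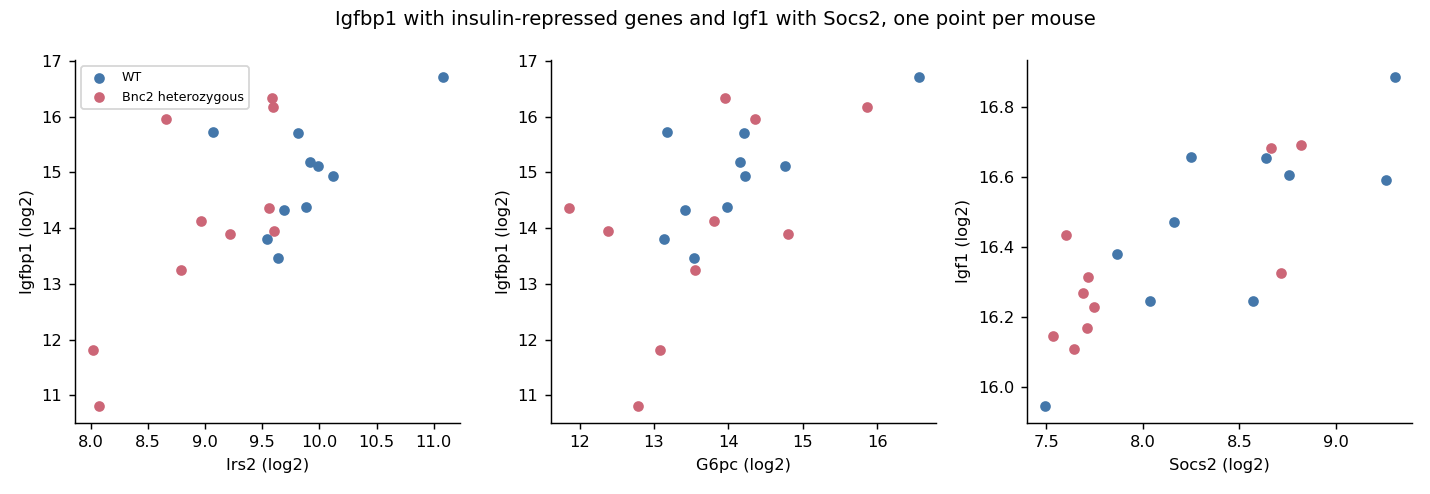
One point per mouse on log2 scales, for 10 WT and 10 heterozygous livers: Igfbp1 against Irs2, Igfbp1 against G6pc, and Igf1 against Socs2. The 2 heterozygous livers with the lowest Igfbp1 (10.80 and 11.82) are also the 2 lowest for Irs2, and Igf1 rises with Socs2 in both genotypes.

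Liver genes whose level follows the sex-dependent rhythm of growth hormone gave a further reading. Of 14 male-biased genes, 9 had a difference above 0 (median 0.30), against 11303 of all 22180 genes. At an unadjusted limma p under 0.05, 3 were higher in heterozygous livers, against 2.78% of all genes. The widest difference of the list went the other way, in the transporter Slco1a1 (10.35 ± 3.08 in WT and 8.90 ± 2.97 in heterozygous livers, limma adjusted p = 0.908), a gene singled out after its values were seen. The 3 called genes were the nudix hydrolase Nudt7 (fold 1.71, 1.28 to 2.30), and the major urinary proteins Mup20 (fold 1.33, 1.10 to 1.61) and Mup3 (fold 1.46, 1.01 to 2.10), members of a family of near-identical genes whose probes can be shared. Mup20, at 19.15 in WT and 19.56 in heterozygous livers, lay close to the array maximum of 19.93. None of the 3 called genes passed adjustment by limma (adjusted p = 0.459, 0.573 and 0.762). Of 13 female-biased genes, 9 had a difference below 0 (median -0.06), against 49.0% of all genes. Sult3a1 alone was lower at an unadjusted limma p under 0.05, against 3.63% of all genes (fold 0.801, 0.642 to 0.999, limma adjusted p = 0.775). Its mean levels, 5.66 in WT and 5.33 in heterozygous livers, lay within the background.

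The other genes of the axis were grouped by role. Among 8 further ligands, receptors and receptor substrates, 5 had a difference below 0 (median -0.06), against 49.0% of all genes. Only Irs2 had an unadjusted p under 0.05 (3.63% of all genes were called lower). The insulin receptor Insr had a fold of 0.904 (0.795 to 1.03, limma adjusted p = 0.841) and Irs1 a fold of 1.21 (0.996 to 1.47, adjusted p = 0.778). Igf2, the fetal ligand, read 4.36 in WT and 4.38 in heterozygous livers, and the receptor Igf1r 7.00 and 6.93, at or near the background. Of 8 proteases and inhibitors that release IGF from its binding proteins or prevent it, 5 had a difference below 0, with a median of -0.01. Only Htra1 was lower at an unadjusted limma p under 0.05, against 3.63% of all genes (fold 0.849, 0.751 to 0.960, limma adjusted p = 0.627). Apart from Adam9, the genes of this list, Htra1 included, had mean levels within the background. Of 11 genes that share the IGF-binding domain, 7 had a difference below 0, against 49.0% of all genes. None had an unadjusted p under 0.05, the nearest being Ccn2, the connective tissue growth factor (fold 0.853, 0.726 to 1.00, adjusted p = 0.777).

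The genes most like the remaining members, by r of genotype-centred values over 20 mice, were Tgm1 (0.79) for Igf1, Pwwp3a (0.84) for Igfals, Slco1b2 (0.84) for Ghr, Prpf8 (0.81) for Igfbp2, Gpam (0.78) for Igfbp3, Trak1 (0.90) for Igfbp4 and Pam (0.90) for Igfbp7. Igfbp1 and Igfbp3 are neighbouring coding genes on chromosome 11, and Igfbp2 and Igfbp5 on chromosome 1, in the RefSeq annotation. Neither neighbouring pair passed the test of correlation across mice, at r = -0.15 for Igfbp1 and Igfbp3 and 0.05 for Igfbp2 and Igfbp5 (adjusted permutation p = 0.830 and 0.882).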

How the data were processed

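Total liver RNA of 20 mice, 10 per genotype, was hybridised singly to Affymetrix MoGene 2.0 ST arrays, 1 per mouse. The authors normalized them with Affymetrix Power Tools (GC correction, intensity scaling and RMA on core genes, version not given in the sources used here) and deposited 1 table of log2 values for 41345 probe sets, whose build is not given in the sources used here. GC correction and RMA can compress differences between dim probe sets. The effect of these steps and of the intensity scaling on the folds was not tested. Probe sets with exactly 1 symbol in the platform annotation (23521) were averaged per symbol to 22180 genes; 1820 with several symbols and 16004 with none were left out.

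Genotypes were taken from the labels. limma 3.58.1 (R 4.3.3) compared 10 heterozygous with 10 WT livers across all genes, without covariates, with Benjamini-Hochberg adjustment, threshold 0.05, and was first tested on simulated data. Single genes were also tested by permuting genotype labels 100000 times, two-sided. Correlations used values centred within genotype, with mice permuted 100000 times within genotype, two-sided, adjusted within each family (45 pairs, 40 relations with markers, 7 for Igfbp1, 20 for growth hormone genes). The 10 genes were all named, with up to 3 genes of smallest p of each pathway list and the 3 genes most like each member. The members, lists and markers were chosen with earlier results of these data known, and the mesothelial genes and the relations of Igfbp1 and of the growth hormone genes after values were seen. Quantile normalization anew, median centring, the brightest probe set per gene, a level filter, robust priors, array weights, a block for replicate number and leaving out each mouse were tried as alternatives. Upstream sequences were read from the RefSeq table with Python 3.11.15. With arrays, the number of mice limits the precision.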

Additional observations from a re-analysis of the deposited data

Results flagged for a closer look

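In 5 of 44 sets of 10 mice (22 genes or gene means in each genotype), 1 mouse lay far from the other 9 by Dixon's test, which chance alone gives in about 1 of 20 sets. Among the IGF axis genes this was Ghr in heterozygous mouse 3, at 12.94 on the log2 scale, with the next mouse at 13.38. Irs2 in WT mouse 7 read 11.08, with the next at 10.12. Mup3 in heterozygous mouse 3 read 16.60, with the next at 17.46. Pck1 in WT mouse 1 read 16.71, with the next at 17.60. Fbxo32 in heterozygous mouse 1 read 7.90, with the next at 8.68, in the mouse that also had the lowest Igfbp1, 10.80.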

How the results depend on the processing

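No gene passed the adjusted threshold by limma under any of 8 other settings or without any 1 mouse, with 546 to 957 genes lower and 363 to 836 higher at an unadjusted p under 0.05 over the 8 settings. The 363 came with the filter on level, where fewer genes were tested. The balance of the 2 directions turned with arrays centred on their medians (627 lower, 836 higher) and without the 4 arrays of smallest spread (762 lower, 770 higher). With median centring the median of all genes moved from 0.003 to 0.02. The count of IGF axis genes at an unadjusted p under 0.05 was 1, or 2 with array weights, and 1 to 2 without 1 mouse, the 2 arising without heterozygous mouse 2. With the replicate block, 0 genes passed the adjustment, 833 were lower and 619 higher, and 1 IGF axis gene was called as before. Same-numbered mice of the 2 genotypes correlated in their deviations at -0.17 to 0.17 and 2 of 10 matched their own number best. These values show no clear pairing by number, but without a reference distribution they cannot exclude one.

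The difference of Igfbp4 turned positive after new quantile normalization (0.0035), median centring (0.0100), array weights (0.0016) and without the 4 arrays of smallest spread (0.0037), and ran from -0.0463 to 0.0275 without 1 mouse. That of Igfbp3 ran from -0.14 to 0.0057. Other small differences kept their sign but moved by over 1.5 times without 1 mouse or without the 4 arrays, as for Igf1 (-0.08 and -0.23), Igfals (0.01 and 0.03), Ghr (0.14 and 0.14) and Igfbp2 (-0.02 and -0.22). The contrast of hepatocyte against mesenchymal genes was 0.57 with scaled genes, and 0.07 to 0.27 without 1 mouse. The correlated pairs numbered 0 without the 4 arrays of smallest spread and 0 to 4 without 1 mouse. Relations of Igfbp1 with insulin-repressed genes numbered 0 to 3 without 1 mouse. Those of Igf1 with growth hormone genes numbered 1 with median centring, 0 without the 4 arrays and 1 to 2 without 1 mouse. The causes were not tested. Leaving out the 4 arrays, the mesothelial list, the scaled contrast and the contrasts without Igfbp1 or Igfbp7 were chosen after seeing the data. Low levels limit Igfbp6 and part of Igfbp5.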
